A study of Mus musculus with 6 samples.

Results

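The regions described here are the wide losses of methylation between infant and young adult lung endothelial cells (EC). They are the differentially methylated regions (DMRs, runs of neighbouring CpG dinucleotides whose methylation differed between the 2 ages) that span at least 400 bp on an autosome and have a lower mean in young adult than in infant EC. The deposited list holds 18,333 DMRs, 18,168 of them on the autosomes, and 573 autosomal DMRs met this rule. They made up 6.81% of the 8,414 autosomal losses, but 23.6% of the bases and 13.5% of the CpGs that lay in them. They are set beside the 7,841 autosomal losses under 400 bp (narrower losses) and the 328 autosomal gains of at least 400 bp (wide gains).

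Lung EC of infant C57BL/6N mice, 8 to 10 days old, and of young adult C57BL/6N mice, 8 to 12 weeks old, were compared, with 3 samples per age. The methods describe the mice as female. The EC were sorted alive as cells positive for CD31 and CD34 that lacked the blood, erythroid and lymphatic markers PTPRC, LY76, LYVE1 and PDPN. Their DNA was analysed by T-WGBS (whole-genome bisulfite sequencing based on tagmentation), in which a transposase cuts the DNA and adds the adaptors, and bisulfite converts cytosines that carry no methyl group. The list gives 1 mean methylation level per age and region, so the spread between mice, and the depth behind a level, are unknown for every value below, and no difference between the ages is tested here. The regions were chosen by measured values, namely by width (a span of consecutive significant CpGs) and by the direction of the group means, so their levels and differences are descriptions of selected regions.

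A methyl group on the cytosine of a CpG is copied to the daughter strand when a cell divides, and is lost passively when copying fails or actively through oxidation by TET enzymes. In differentiated cells most CpGs outside promoters are methylated, and those in active enhancers, many of which lie in introns, are less so. Lung capillary EC carry out gas exchange, clear prostaglandins and take up lipids, and between infancy and adulthood they pass from growth to rest.

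The reference sequence in the middle of 3 wide losses shows how far apart the CpGs of these regions lie. The stretches are the central 300 bases of the widest region (intron 1 of *Cyth3*, chr5:143631676-143631975), the one with the most CpGs (intron 1 of *Plxna1*, chr6:89360142-89360441) and the largest fall among those of only 3 CpGs (intron 1 of *Klf13*, chr7:63904727-63905026). They are RefSeq sequences of mm10 (GRCm38), plus strand, with the CpGs in capitals.
*Cyth3*: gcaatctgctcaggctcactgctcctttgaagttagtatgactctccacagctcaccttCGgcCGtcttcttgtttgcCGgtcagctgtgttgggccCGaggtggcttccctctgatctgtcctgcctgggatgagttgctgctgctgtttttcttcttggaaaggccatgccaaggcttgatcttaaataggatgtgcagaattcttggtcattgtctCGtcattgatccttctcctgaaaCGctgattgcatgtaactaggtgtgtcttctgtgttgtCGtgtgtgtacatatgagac
*Plxna1*: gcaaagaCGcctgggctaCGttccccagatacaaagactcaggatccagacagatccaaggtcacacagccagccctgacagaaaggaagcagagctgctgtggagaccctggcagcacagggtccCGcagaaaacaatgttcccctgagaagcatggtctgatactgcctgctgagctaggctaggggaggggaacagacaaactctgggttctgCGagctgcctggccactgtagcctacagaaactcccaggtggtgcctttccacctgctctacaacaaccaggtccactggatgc
*Klf13*: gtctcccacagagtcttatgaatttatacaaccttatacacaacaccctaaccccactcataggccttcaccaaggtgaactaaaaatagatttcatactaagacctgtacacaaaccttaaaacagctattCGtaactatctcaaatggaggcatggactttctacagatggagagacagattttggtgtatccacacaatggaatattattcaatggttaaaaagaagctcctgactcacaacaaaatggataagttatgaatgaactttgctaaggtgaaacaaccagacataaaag
The stretch in *Cyth3* held 7 of the region's 27 CpGs, that in *Plxna1* 4 of 30 and that in *Klf13* 1 of 3. In *Cyth3* the region as a whole (chr5:143630758-143632896, 2,137 bp) went from a mean of 66.5% at the infant age to 13.5% in young adults. In *Plxna1* (chr6:89359349-89361237, 1,887 bp) the means were 51.9% and 6.66%, and in *Klf13* (chr7:63904630-63905125, 494 bp) 83.0% and 40.8%.

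Losses were more frequent among wide regions than in the whole list. Of all autosomal DMRs, 46.3% were lower in young adult EC. Of the 901 DMRs of at least 400 bp, 63.6% were (573, 95% Wilson interval 60.4 to 66.7%). The share was higher at greater width, going from 53.9% of the 505 DMRs of 400 to 500 bp to 70.3% of the 276 of 500 to 700 bp, 88.1% of the 84 of 700 to 1,000 bp and 91.7% (33 of 36) beyond that. It was above the share in the whole list on 16 of 19 chromosomes, the exceptions being chromosomes 3, 4 and 13. These intervals, like those below, cover only the number of regions. Neighbouring regions are not independent, so the intervals are too narrow.

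The number of CpGs set wide losses and wide gains further apart. Of the 172 wide DMRs with only 3 CpGs, 28 were losses (16.3%, interval 11.5 to 22.5%). With 4 CpGs the share was 42.5% (57 of 134), with 5 to 7 it was 74.3% (226 of 304), and with 8 or more it was 90.0% (262 of 291, interval 86.1 to 92.97%). The rise with CpG number was not particular to wide regions. Over all autosomal DMRs, 4,415 of the 12,074 with 3 CpGs and 474 of the 560 with 8 or more were losses. A wide loss held a median of 7 CpGs (range 3 to 30) and a wide gain a median of 4. Conversely, of the 224 losses with at least 10 CpGs, 163 (72.8%) were wide.

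**Figure D1:**
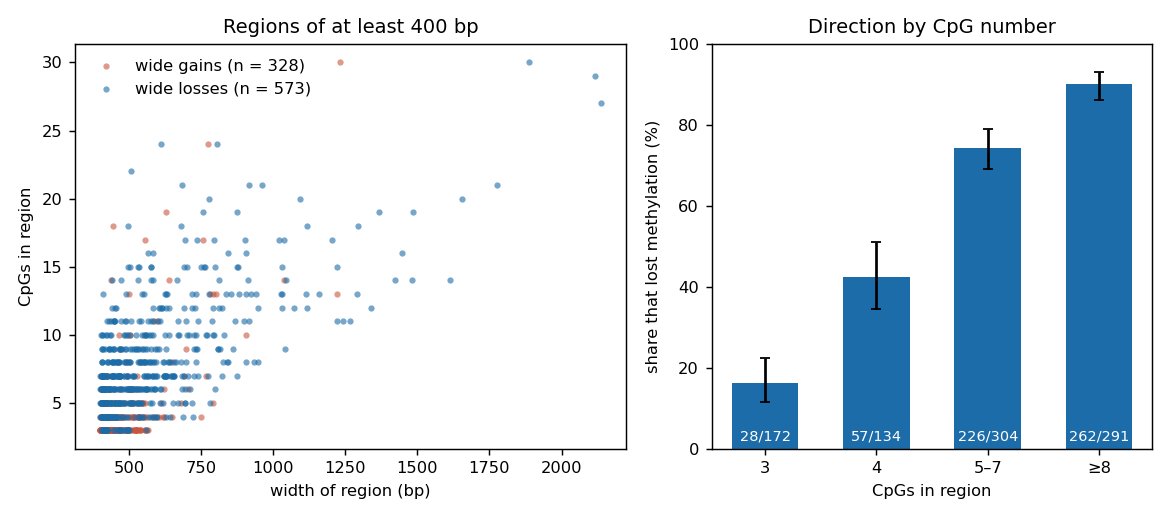
Left, width in bp against the number of CpGs for the 573 wide losses (blue) and 328 wide gains (red), 1 point per region. Right, bars give the share of wide regions that lost methylation, by CpG number, with 95% Wilson intervals and counts, and the share is 16.3% with 3 CpGs and 90.0% with 8 or more.

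Wide losses held fewer CpGs per kb than narrower losses and more than wide gains. Their median width was 508 bp (quartiles 441 and 631 bp), with 13.4 CpGs per kb, against 31.2 in narrower losses and 7.51 in wide gains. This density is the CpG number divided by the width, and the regions were chosen by width. Every DMR also needed a minimum number of CpGs, so a very narrow one had to be dense. The contrast with narrower losses is thus set in part by the rule and does not show sparse sequence. Wide gains met the same width minimum. The largest distance between neighbouring CpGs within a wide loss had a median of 212 bp. No listed autosomal DMR contained a distance above 300 bp, so a stretch of more than 300 bp without a CpG ended a region wherever it occurred. Such a stretch bordered 161 wide losses (28.1%) on at least 1 side and 18.3% of narrower losses. In 26 wide losses (4.54%) the CpG across it was the first of another listed loss.

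The wide losses went from intermediate or high methylation in infant EC to low methylation in young adult EC. The median level of the 573 regions was 64.7% in infant EC (quartiles 53.5 and 73.5%, range 16.8 to 94.3%) and 24.8% in young adult EC (quartiles 14.99 and 34.5%, range 1.27 to 69.3%). The median difference was -36.9 percentage points (interval of the median -38.0 to -36.2), with a range from -66.2 to -11.9. Narrower losses had medians of 61.2% and 25.4% and a median difference of -32.1 points. The median fall was larger in wide than in narrower losses on 19 of 19 chromosomes. Width spans CpGs that were each significant between the same ages, so it is not independent of the fall. The count of chromosomes is thus a description only, and the medians at equal CpG number are given below.

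Wide losses seldom ended at either extreme. A fall of at least 30 points was listed for 82.2% of wide and 59.7% of narrower losses. Only 2.97% of wide losses, against 10.8% of narrower ones, remained above 50% in young adult EC. At the low end, 12.4% of wide and 17.1% of narrower losses were under 10% in young adult EC.

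The median fall of wide losses was larger with more CpGs. Among wide losses the median difference was -27.0 points with 3 CpGs (n = 28), -32.0 with 4 (n = 57), -35.5 with 5 to 7 (n = 226), -38.5 with 8 to 11 (n = 159) and -42.9 with 12 or more (n = 103). In narrower losses it was -30.6, -32.6, -34.9, -37.0 and -38.3 points in the same classes. With 5 to 7 CpGs, where both groups are large, the quartiles were -40.7 and -31.2 in wide losses and -41.1 and -29.9 in the 1,452 narrower losses. With 12 or more CpGs there were only 20 narrower losses. With 3 CpGs the fall was smaller in wide than in narrower losses. The differences between the medians within a class were not tested.

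**Figure D2:**
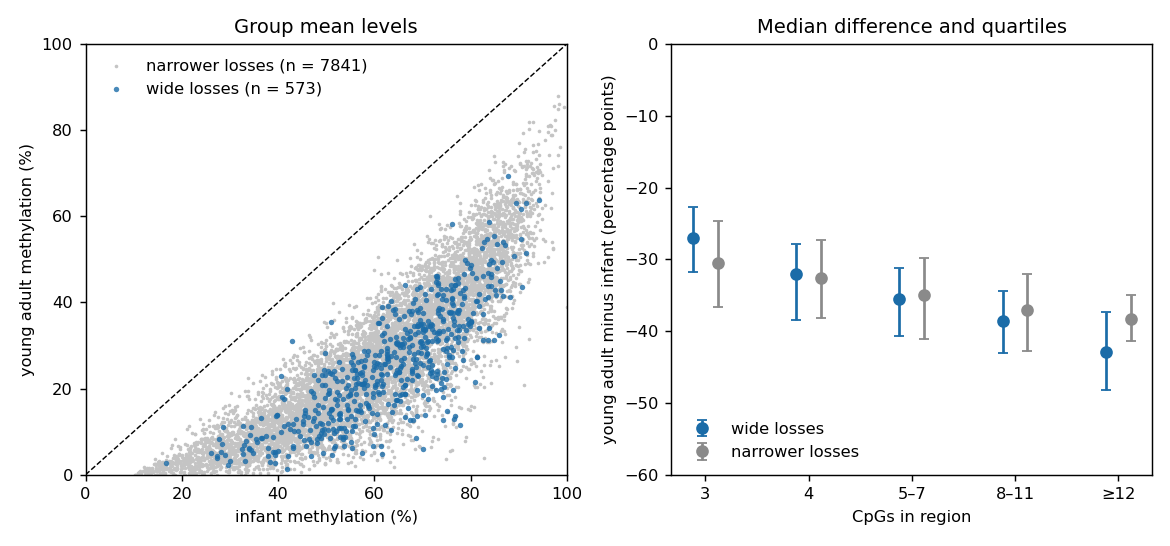
Left, group mean methylation (%) in infant (x) and young adult EC (y) for 573 wide (blue) and 7,841 narrower losses (grey), 1 point per region, with the line of equal levels dashed. Right, the median difference (points) and quartiles (bars) by CpG number, running from -27.0 to -42.9 percentage points in wide losses and from -30.6 to -38.3 in narrower losses.

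The wide losses lay in introns. By its midpoint, 492 of the 573 (85.9%, interval 82.8 to 88.5%) were intronic, against 74.1% of narrower losses (73.2 to 75.1%), 45.7% of wide gains (40.4 to 51.1%) and 58.4% of all autosomal DMRs. The whole region lay within introns in 81.2%. A further 58 (10.1%) were intergenic, 14 (2.44%) exonic, 7 (1.22%) in promoters (1 kb before to 100 bp after a transcription start site, TSS) and 2 at transcript ends. The intron share was above that of narrower losses on 17 of 19 chromosomes. On chromosome 13 it was 37.5% of only 8 regions, and on chromosome 16 it was 81.8% against 83.2%.

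Intronic wide losses lay most often in intron 1, which held 267 of the 492 intronic regions (54.3%, interval 49.9 to 58.6%), against 44.8% of intronic narrower losses and 34.0% of intronic wide gains, and introns 1 to 3 held 84.6%. Of all wide losses, 37.3% lay 1 to 10 kb downstream of the nearest TSS, against 26.2% of narrower losses and 13.7% of wide gains. A further 38.6% of wide losses lay 10 to 100 kb downstream, against 40.8% of narrower losses. Within 1 kb of a TSS lay 3.84% of wide losses, close to the 3.82% of all autosomal DMRs. The median difference was alike along the gene, at -37.4 points in intron 1, -38.0 in intron 2, -35.3 in intron 3 and -37.1 in later introns.

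**Figure D3:**
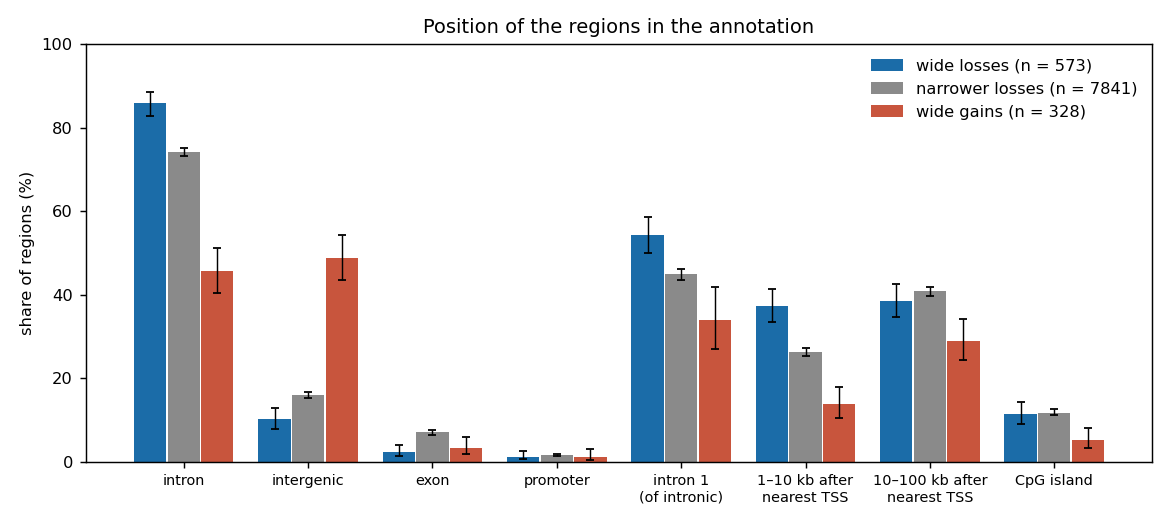
Bars give the share of regions (%) by annotated position for 573 wide losses (blue), 7,841 narrower losses (grey) and 328 wide gains (red), with 95% Wilson intervals. Introns hold 85.9%, 74.1% and 45.7% of the 3 groups, and intron 1 is given as a share of the intronic regions.

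The 7 promoter regions, named after their values were seen, were methylated at intermediate levels in infant EC (median 38.9%, range 33.0 to 65.6%) and at low levels in young adult EC (median 8.81%). One lay within *Cdh5*, which encodes the endothelial adherens junction protein VE-cadherin, at the start of the overlapping non-coding gene *Gm29682* (chr8:104105942-104106417). Its means were 37.9% and 4.44%. The others were assigned to *Rasgef1a*, *Shisa5*, *Tmem95*, *0610039H22Rik*, *Gcnt2* and *Gm9949*.

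Most wide losses lay outside CpG islands, and most held some repeat bases. A computed CpG island (200-base windows with GC of at least 50% and more than 0.6 of the CpGs that base composition predicts) touched 11.3% of wide losses (interval 9.0 to 14.2%), a share that overlapped the 11.8% of narrower losses, and 5.18% of wide gains. With stricter islands the share was 1.22%. A median of 12.1% of the bases of a wide loss were repeats, against 0% in narrower losses and 13.7% in wide gains. No repeat base was found in 13.3% of wide losses, 58.2% of narrower losses and 8.23% of wide gains. A longer region is likelier to touch an island and to hold a repeat base, and the regions were chosen by width. The median width was 508 bp in wide losses, 119 bp in narrower losses and 455 bp in wide gains. The comparison with narrower losses in these shares is thus set in part by the rule. In 19 wide losses (3.32%) repeats made up over 50% of the bases, against 7.17% of narrower losses and 10.7% of wide gains. A GENCODE transcript began in the central 400 bp of 8 wide losses (1.40%, interval 0.71 to 2.73%), against 2.88% of narrower losses and 1.52% of wide gains.

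Other losses surrounded the wide losses, and gains were rarely close. Another listed loss lay within 1 kb of 349 (60.9%, interval 56.9 to 64.8%), against 31.9% of narrower losses (30.9 to 32.9%) and 0 of 328 wide gains, which allows a share of up to 0.915% (3 counts of 328, against an upper Wilson limit of 1.16%). The median distance to the nearest other loss was 610 bp for wide and 3,505 bp for narrower losses. The nearest listed DMR of either direction was a loss for 93.5% of wide losses and 80.7% of narrower ones. A gain within 10 kb was listed for 18 wide losses (3.14%), against 8.91% of narrower losses, and the closest lay 3,451 bp away. For wide gains a neighbouring loss is of the opposite direction, and another gain lay within 10 kb of 108 of the 328 (32.9%). The share with another loss within 1 kb was above that of narrower losses on 18 of 19 chromosomes, the exception being chromosome 3, where 1 of 10 wide losses had such a neighbour.

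**Figure D4:**
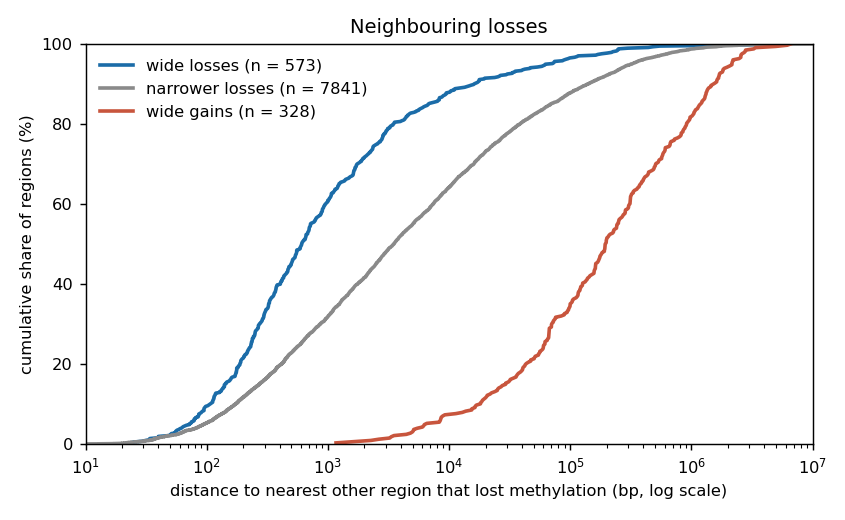
Cumulative share of regions (%) by distance to the nearest other region that lost methylation (bp, log scale), for 573 wide losses (blue), 7,841 narrower losses (grey) and 328 wide gains (red). The curve of the wide losses reaches 60.9% at 1 kb, that of the narrower losses 31.9%, and that of the wide gains is still at 0. For wide gains such a neighbour is of the opposite direction.

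Joined where at most 10 kb apart, the 573 regions formed 376 runs, 281 of them of a single region. There were 36 runs of at least 3 regions, which held 174 regions. The longest run in number held 13 wide losses in *Smad6* over 38,292 bp, followed by 12 in *Cyth3* over 28,763 bp and 12 in *Epas1* over 35,832 bp. A run of 7 lay between genes, upstream of *Sptbn1* (chr11:30230115-30259368). Its 7 regions ranged from 45.5 to 71.2% in infant and from 8.59 to 25.9% in young adult EC.

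By gene body, 281 of 24,963 autosomal genes (1.13%) held a wide loss, which was 12.7% of the 2,208 genes with any listed loss. Of these genes, 100 held at least 2 wide losses and 29 at least 4. Of the 513 wide losses in gene bodies, 65.7% lay in a gene with at least 2. Among the 301 genes with more than 5 losses, 164 (54.5%) held a wide one, and among the 1,154 genes with a single loss 36 (3.12%) did. The genes with a wide loss had a median length of 60.1 kb, against 52.7 kb for genes with losses but no wide one and 13.7 kb for all genes. In 235 of the 281 genes no gain was listed.

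*Cyth3*, a phosphoinositide-binding exchange factor that activates Arf GTPases, held the most wide losses, 19 of its 50 losses, with 17 in intron 1. Their infant levels ranged from 48.7 to 85.5% and their young adult levels from 8.86 to 47.9%. The lowest young adult level lay at chr5:143679136-143679809 (52.8% to 8.86%) and the widest region near the start of the intron, and both regions stood between wide losses that stayed above 25% in young adult EC. A second region of *Cyth3* spanned 1,775 bp (chr5:143639495-143641271) and went from 84.9% to 31.4%.

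*Smad6*, which encodes an inhibitory SMAD that dampens bone morphogenetic protein (BMP) signalling, held 15 wide losses among 61 losses, all in introns and 13 of them in intron 3. Their infant median was 71.0% (53.7 to 84.6%) and their young adult median 28.2% (10.9 to 49.4%). The largest difference was -52.3 points, at chr9:63977015-63977642 (83.6% to 31.3%). None of its regions reached the width of the widest ones in *Cyth3*, and the widest spanned 1,029 bp in intron 1.

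*Epas1*, the gene of a hypoxia-inducible factor alpha subunit abundant in EC, held 12 wide losses, all in intron 1, with 159 CpGs between them. Their infant median was 57.0% and their young adult median 13.3%, with 10 of the 12 under 20% in young adult EC. The second widest region of all lay there (chr17:86764262-86766379, 2,116 bp, 29 CpGs), and went from 68.9% to 13.8%. The neighbours on either side, at chr17:86763154-86763895 and chr17:86767118-86767696, were at 48.2% and 55.1% in infant and both at 7.5% in young adult EC.

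*Calcrl*, the receptor for adrenomedullin and calcitonin gene-related peptide, held 9 wide losses with the lowest young adult levels of the leading genes (median 5.36%). In 7 of the 9 the level was between 4.28% and 6.33%, although the infant levels ranged from 28.2 to 55.3%. The region in intron 9 (chr2:84362719-84363212) stood apart and went from 69.7% to 29.7%. *Adgrf5*, an adhesion G protein-coupled receptor, held 8, and 3 neighbours in intron 1 within 4 kb reached 1.27%, 4.81% and 5.88% from 41.8%, 61.7% and 70.2%. The next 5 towards the end of the gene stayed between 23.2 and 37.5%. Within this gene the level at the older age thus differed between neighbouring wide losses, at 5.88% and 31.1% for a pair less than 1 kb apart.

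*Sema6a*, a transmembrane semaphorin, held 8 wide losses, all in intron 1, which went from 45.6 to 90.6% in infant to 14.4 to 46.5% in young adult EC. *Ankrd33b* held 7 in intron 1 with a median difference of -47.2 points. *Prickle2*, a planar cell polarity gene, also held 7, in a gene of 335.3 kb, and ended higher (young adult median 41.3%). The same was true of *Kitl*, which encodes the ligand of the KIT receptor, with 6 wide losses that ended between 25.1 and 49.0%, and of *Frmd6*, a FERM domain gene, with 6 and a young adult median of 42.8%. *Arhgef3*, a guanine nucleotide exchange factor, *Myo10*, a motor of filopodia, and *Rgs12*, which speeds the shut-off of G proteins, held 6 each, with young adult medians of 27.7%, 29.3% and 30.9%. *Ehd4*, *Klf7*, *Plxna1*, *Tmcc2* and *Tspan13* held 5 each. Of their medians in young adult EC, that of *Tmcc2* was lowest (22.4%) and that of *Klf7* highest (31.1%).

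**Figure D5:**
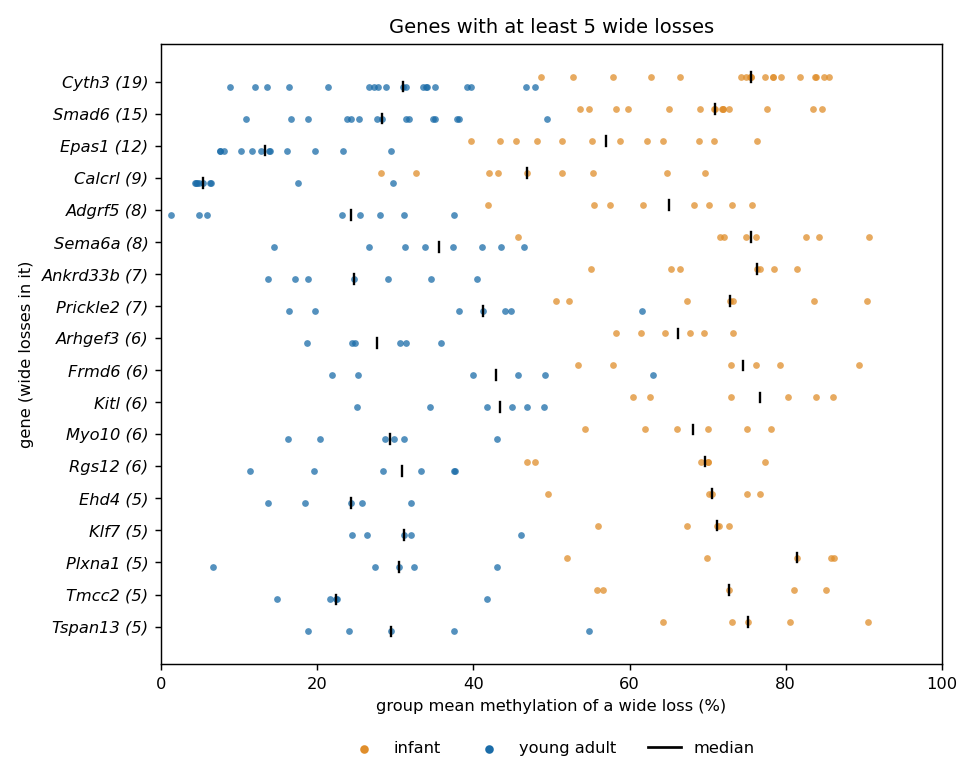
Group mean methylation (%) of each wide loss in the 18 genes with at least 5 of them (number in brackets), with infant levels in orange, young adult levels in blue and the medians as black bars. Young adult medians run from 5.36% in *Calcrl* to 43.4% in *Kitl*, while infant medians lie between 46.8% and 81.4%.

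Gene lists of vascular pathways were set beside the 1.13% of all genes with a wide loss, without a test, because the lists were chosen with earlier results of these data known. Gene length was not accounted for. In the list of lung capillary and lipid uptake genes, 11 of 34 genes (32.4%) held a wide loss and 19 held any loss. *Slco2a1*, which imports prostaglandins, held 3 wide losses that ended at 5.54 to 19.9%. *Hpgd*, which degrades them, held 2, one of 1,613 bp in intron 2 (chr8:56295942-56297556) that went from 53.6% to 8.71% with 14 CpGs. *Emp2*, a tetraspan membrane protein gene, held 2 that ended at 43.0 and 43.4%, and *Cavin2*, a caveolar coat gene, held 2 that ended at 9.06 and 33.6%. Beside *Calcrl* and *Kitl*, the list counted 1 each in *Ednrb*, *Ece1*, *Prx*, *Cd36* and *Tmem100*, genes outside the naming rule.

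Of 41 endothelial transcription factor genes, 7 (17.1%) held a wide loss and 22 any loss. *Epas1* held 12 of the 20 regions. *Ets1*, an ETS factor of EC, held 2 that ended at 20.2 and 20.8%, and *Tbx2*, a T-box repressor, held 2 that ended at 42.0 and 41.2%. Of 36 junction and integrin genes, 6 (16.7%) held one. *Itga3*, the alpha chain of a laminin receptor, held 4 wide losses, of which the one at chr11:95070453-95071062 reached 6.75%. *Ctnnd1*, the catenin that stabilises cadherins at the membrane, held 3 that ended at 21.1 to 40.3%. *Cdh5* held 2, both at 4.4% in young adult EC from 37.9% and 27.2%.

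Among 44 genes of BMP and TGFβ signalling, 5 (11.4%) held a wide loss and 17 any loss. The inhibitory SMAD genes held 17 of these 22 regions, 15 in *Smad6* and 2 in *Smad7*, of which 1 had 17 CpGs and went from 72.9% to 23.3%. On the receptor side, *Eng*, the co-receptor endoglin, held 2 in intron 1 that ended at 15.02 and 12.96%. *Acvr1b*, an activin receptor, held 2 that ended at 46.1 and 28.4%. *Bmpr2*, the type II BMP receptor, held 1 (chr1:59775264-59775741), whose difference of -60.3 points was among the 8 largest although it had only 4 CpGs. No ligand gene of the list held a wide loss, which says little, because the list has few ligand genes and 1.13% of all genes held one. Of the 29 genes of semaphorins and their receptors, 4 (13.8%) held a wide loss. Beside *Sema6a*, these were *Plxna1*, a plexin that receives semaphorin signals, *Sema3c*, a secreted semaphorin with 2 regions that ended at 8.78 and 9.46%, and *Sema7a*, a membrane-anchored one with 2 that ended at 27.5 and 31.6%.

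In the other lists wide losses were few. Of 22 NOTCH genes only *Maml3* held 1, and of 20 genes of VEGF, angiopoietin and FGF signalling only *Fgf1*, whose region ended at 69.3%, the highest young adult level of all 573. Over the pathway lists, the median differences of the wide losses ran from -34.6 points in junction and integrin genes to -43.3 in semaphorin genes, leaving out the 2 lists with a single region. The median over all wide losses was -36.9. Among markers of other cell types, 0 of 12 haematopoietic, 0 of 7 lymphatic and 0 of 12 mesenchymal genes held a listed loss of any width. Of 12 lung epithelial genes 2 did, and 1 of these, *Hopx*, held a wide loss. Of all 24,963 autosomal genes, 2,208 held a listed loss, so a count of 0 in lists this short says little. The list holds no expression values, so the identity of the cells was not tested.

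The widest regions differed in their end level. After *Cyth3*, *Epas1* and *Plxna1*, the 8 widest included 1 in intron 2 of *Prickle2* (1,655 bp, 83.6% to 41.3%), that of *Hpgd*, 1 in intron 1 of *Cd47* (chr16:49857554-49859040, 1,485 bp, 48.2% to 8.31%) and 1 in intron 20 of *Tns3*, a focal adhesion gene (chr11:8460338-8461821, 1,482 bp, 86.8% to 54.0%). CD47 is the surface protein that SIRP alpha on macrophages binds. The *Tns3* region thus began highest and ended highest of the 8, and that of *Plxna1* ended lowest.

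The 8 largest differences ran from -66.2 to -59.4 points. They included intron 1 of *Adgrf5* (chr17:43393502-43394136, 70.2% to 5.88%), an intergenic region nearest to *Lncppara* (76.6% to 13.0%), intron 1 of *Ehd4* (chr2:120148851-120150300, 76.7% to 13.6%, 16 CpGs), *Ly6a*, a surface marker gene of mouse EC and stem cells (74.3% to 12.6%), *Bmpr2*, *Neat1* and *Tmcc2*. The region in *Neat1*, a nuclear RNA of paraspeckles, lay in the exon (chr19:5844451-5845137) with 21 CpGs and went from 68.6% to 8.58%. *Ly6a* and *Bmpr2* had only 4 CpGs each and *Tmcc2* had 6. Of the regions with most CpGs, *Podxl*, a sialomucin gene, held 24 in intron 1 (53.4% to 8.35%) and an exon of *Plxna1* held 24 (chr6:89356841-89357454, 85.8% to 32.4%).

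Regions at the width limit had differences of like size on either side of it. The 5 wide losses just inside it (*Ykt6*, *Arhgef3*, *Rab31*, *Clec2e* and 1 nearest to *Gm5334*, 400 to 402 bp) differed by -38.8 to -26.2 points. The 5 losses just outside it (*Cep85l*, *Pald1*, *Plxna1*, *Pllp* and *Kitl*, 399 bp) differed by -43.1 to -26.6 points. The study designed 22 amplicons for a targeted methylation assay, whose values were not used here, and 6 of them overlapped a wide loss, in *Cd47*, *Cyth3*, *Ece1*, *Plxna1*, *Sema3c* and *Smad6*. The wide loss of *Ece1*, the endothelin-converting enzyme, went from 68.9% to 19.7%.

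Short sequence motifs were searched on both strands in the central 200 bp, and the share of windows with at least 1 match was compared. That window held a median of 2 CpGs in wide and 4 in narrower losses. Whether this bears on the shares of motifs that contain CG was not tested. The GATA motif AGATAA was present in 15.2% of wide losses, 13.7% of narrower losses and 11.8% of all autosomal DMRs. The ETS motif AGGAAG was present in 26.0%, 29.6% and 28.6%, in that order, and the NFAT motif GGAAAA in 19.4%, 16.7% and 17.4%. For these 3 motifs the interval of the difference between wide and narrower losses included 0. It was -1.56 to 4.51 points for GATA, -7.33 to 0.11 for ETS and -0.62 to 6.05 for NFAT. In windows of 400 bp NFAT was present in 34.7% of wide and 30.7% of narrower losses, and no interval of the difference was computed there. Within the windows of 200 bp, no searched motif had such an interval wholly above 0. The hypoxia-inducible factor motif ACGTG, which holds a CpG, was present in 9.60%, 15.9% and 15.3%, and the BMP SMAD motif GGCGCC in 0.17%, 1.16% and 1.58%. The KLF motif CCACCC, which holds none, was present in 12.7%, 17.8% and 16.0%, but in windows of 400 bp in 29.1%, 31.1% and 29.5%. In windows of 200 bp, AP-1 (TGANTCA) was present in 4.89% of wide and 6.96% of narrower losses, and forkhead (TGTTTAC) in 4.19% and 6.02%. The E-box CAGCTG was present in 8.90% and 11.5%, and NF-kB (GGGNNTTCC) in 1.57% and 3.23%. CREB (TGACGT) was present in 1.92% and 3.78%, and the ETS form CGGAAG in 3.49% and 6.06%. In these, as in the hypoxia-inducible factor, BMP SMAD and KLF motifs, the interval of the difference lay below 0. In wide gains the homeobox motif TAATTA was present in 7.01%, against 2.62% of wide losses. A match describes letters in a window and does not show that a factor was bound.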

How the data were processed

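Genomic DNA of sorted EC was sequenced by T-WGBS from 3 infant and 3 young adult samples. The authors aligned the bisulfite reads to mm10 with BWA (version 0.6.1) and called DMRs with bsseq in R (version 3.2.2), without smoothing. A CpG needed 8-fold coverage in 2 of the 3 samples of a group, and a DMR needed 3 consecutive CpGs, each at p under 0.05 in their t-test, and group means 10 percentage points apart. The deposited list gives the mean of each group as a fraction, shown here as percent. Values per sample were not used, and the depth behind a region is unknown.

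First and last positions lay on a CpG of GRCm38 in 18,333 of 18,333 regions. Width is the distance between them, and printed coordinates are 1-based and include the last CpG. Regions were placed by their midpoint in 45,657 curated RefSeq transcripts, and overlapping genes share regions. Shares have 95% Wilson intervals and medians exact binomial intervals. Python 3.11.15, pandas 2.3.3, scipy 1.17.1 and pysam 0.24.0 were used, and the procedures were tested on simulated data.

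The regions and the gene lists were chosen with earlier results of these data known. Named regions are the 8 widest, the 8 largest falls, the 5 with most CpGs, 5 on either side of the width limit and those at amplicons. Named genes are the 15 with most wide losses, with ties, and listed genes with at least 2. Others were named after their values were seen. Alternatives changed the width minimum, the minimum difference and CpG number, joining, the X chromosome and the definitions of position, island, distance and window. Some items of these rules are not reported here.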

Additional observations from a re-analysis of the deposited data

How the results depend on the processing

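No test between the ages was made. With a width minimum of 300 bp there were 1,201 wide losses, their share among wide DMRs was 53.2%, the median difference -35.4 points and the share with another loss within 1 kb 48.7%. With 500 bp these were 301, 76.0%, -38.6 points and 66.4%, and the island share was 14.6%. With a difference of at least 30 points the loss share was 89.2%, the median difference -39.0 points, the infant median 66.4% and the density 14.1 CpGs per kb. With at least 5 CpGs the loss share was 82.0% and the density 14.3 CpGs per kb. The loss share among all autosomal DMRs was not computed here with either minimum. The 46.3% of the whole list had neither minimum applied. The shares of 89.2% and 82.0% thus cannot be set against it to judge width. Joining losses at most 500 bp apart gave 1,010 wide losses, 695 of them from more than 1 region, with a median difference of -35.6 points, an island share of 20.4% and another loss within 1 kb in 30.4%, a share that joining itself lowers. The intron share was 81.2% when the whole region had to be intronic and 77.1% with promoters of 2 kb to either side. Strict islands gave an island share of 1.22%, and a distance of 2 kb gave 71.6% with another loss. These are 23 of 60 alternative values, and the other 37 stayed within the interval of the reported value or within 1.5 times the count. The cause of each shift was not tested beyond these definitions. In windows of 400 bp, 1 of 19 motif differences between wide and narrower losses moved beyond its interval, that of KLF (-5.06 points, and -1.94 in the wider window), and none changed direction among those whose interval excluded 0.

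No paired analysis was possible because values per sample were not used, and no replicate was left out in turn. The unknown depth per region limits every level given above.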

Other observations

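On the X chromosome, left out of the regions above, 1 listed DMR spanned at least 400 bp, and it was a loss. None of the 573 wide losses overlapped a microRNA hairpin or a functional element annotated by RefSeq. The 7,841 narrower losses had 3 hairpins and 10 elements (0.128%), and the 328 wide gains 4 elements (1.22%). All 18,168 autosomal DMRs had 5 hairpins and 73 elements (0.402%). With shares this low, a count of 0 in 573 regions says little.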
